A study of Mus musculus with 6 samples.

Results

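Vasopressin and oxytocin signalling was followed through 5 genes: the peptide precursor genes Avp and Oxt, the receptor genes Avpr1a and Oxtr, and Lnpep, which encodes an aminopeptidase that cleaves both peptides. They were taken by gene symbol, and all 5 were found among the 18228 genes of the deposited tables. RNA came from hypothalamus tissue of 3 mice aged 22 months (aged) and 3 mice aged 12 weeks (young), each mouse giving 1 sequencing library. The mice had been through a behavioural experiment, and the study set out to find hypothalamic genes that accompany cognitive decline with age. Strain and sex are not in the labels, and no treatment or genetic change is named for either group.

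Vasopressin and oxytocin are short, closely related peptide hormones made by large (magnocellular) neurons of the paraventricular and supraoptic nuclei, which send axons to the posterior pituitary. Vasopressin acts on the kidney and on blood vessels, oxytocin on the uterus and the mammary gland, and both act inside the brain on social behaviour, stress and memory. Vasopressin is also made in the suprachiasmatic nucleus, the circadian clock of the brain. Each hormone is cut out of a precursor that also holds a neurophysin, its carrier protein. In the brain the hormones act mainly through the V1a receptor (Avpr1a) and the oxytocin receptor (Oxtr), which couple to the G protein Gq and phospholipase C.

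Libraries held 17208291 to 18884403 counted reads. All 15 hypothalamic marker genes, such as Hcrt, Pmch, Pomc and Nkx2-1, were detected in all 6 libraries, with a summed level of 931 to 1019.9 CPM in aged and 972 to 1168 CPM in young libraries (CPM is a read count scaled to library size, here with TMM factors). Within that sum single markers moved in opposite directions, and 10 of 15 had an unadjusted p under 0.05 in edgeR, against 26.2% of all genes tested. Of the 10, Hcrt and Pomc were lower in aged, and Agrp, Npy, Gal, Hdc, Tac2, Nkx2-1, Sst and Rax were higher. For Pomc and Agrp the groups overlapped, and neither passed after adjustment (edgeR adjusted p = 0.170 and 0.0753). Pomc stood at 22.9 to 29.1 CPM in aged libraries and at 26.5, 32.4 and 60.6 CPM in young replicates 1 to 3. The median log2 fold change of the 15 was 0.22, against -0.0035 over all genes tested. Hcrt (orexin) fell by 0.82 on the log2 scale (edgeR adjusted p = 0.0161), a call lost in 2 of 19 alternative analyses. Rax, a gene of tanycytes, rose by 1.35 (edgeR adjusted p = 0.0372) on 11 to 57 reads a library, a call lost in 5 of 19. DESeq2 called 6 of the 15, 5 higher and 1 lower, beside 589 genes higher and 720 lower over the whole table. Expression from the Y chromosome (Uty, Ddx3y, Eif2s3y and Kdm5d) summed to 184 to 203 CPM in the aged and 1.38 to 1.88 CPM in the young libraries. Y-linked expression thus divided the mice exactly as age did, and for every difference below age and sex cannot be told apart. These libraries are from whole tissue, so fewer cells of a type and less RNA per cell cannot be told apart either. Young replicates 2 and 3 and aged replicate 1 differed from the others in marker genes of neighbouring tissue. Those values stand beside the genes they move with below. Young replicate 1 differed in hypothalamic markers. Of the 15, 4 were highest there, among them Hcrt (247 CPM) and Pmch (563 CPM), and 7 were highest in aged replicate 2. Agrp (0.352 CPM), Npy (7.85 CPM) and Rax (0.645 CPM) were lowest in young replicate 1. It was also the library with the least Avp, and the part of this in the Avp level was not tested.

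Of the 5 genes, only Avp passed the test (edgeR's quasi-likelihood test, Benjamini-Hochberg adjusted p under 0.05); it was higher in aged hypothalamus. Over all 14702 genes tested, 6.86% passed in either direction, 3.22% higher and 3.64% lower. Of the 5 genes, 0 passed as lower, although 3 (Avp, Oxt and Lnpep) had an unadjusted p under 0.05 in edgeR, against 26.2% of all genes; DESeq2 and limma-voom also passed 0 as lower, and limma-voom with sample weights passed 1. The aged and young libraries did not overlap for 2 of 5 genes, against 31.7% of all genes tested; Avp had the aged above (15.5% of all genes) and Oxt the aged below (16.2%). So few genes do not allow a share to be told from its background.

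**Figure D1:**
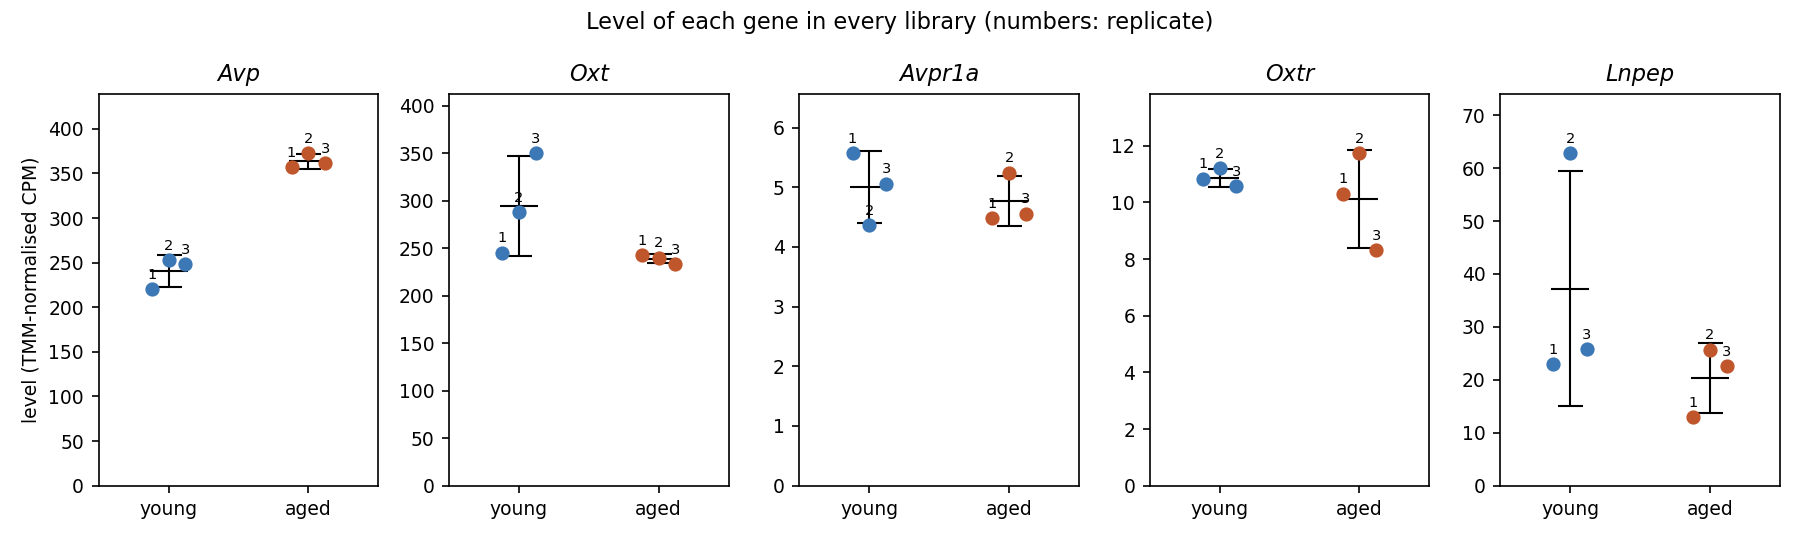
Level of each of the 5 genes in every library, in TMM-normalised CPM on linear axes from 0; points are libraries with their replicate number, horizontal lines the mean and bars the SD (n = 3). The aged libraries lie above the young for Avp (357 to 373 against 220.5 to 253 CPM), while young replicate 3 is highest for Oxt and young replicate 2 stands apart for Lnpep.

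The Avp and Oxt precursors resemble each other closely, and this bears on how their reads can be counted. The codons of the hormones themselves, read from the GENCODE M21 transcripts Avp-201 and Oxt-201, are shown because they are what separates the peptides; capitals mark the bases that differ.
Avp hormone codons: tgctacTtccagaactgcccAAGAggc
Oxt hormone codons: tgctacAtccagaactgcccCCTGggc
Counted from 1 at the 5′ end of these codons, with the Avp base first, the substitutions are T7A, A21C, A22C, G23T and A24G. They fall in 3 of 9 codons, and 2 of these encode another amino acid. Further along, in the part of the precursor that encodes neurophysin, the coding sequences are identical over 127 bases, positions 131 to 257 of the Avp and 119 to 245 of the Oxt coding sequence, here all in lower case:
Shared by Avp and Oxt: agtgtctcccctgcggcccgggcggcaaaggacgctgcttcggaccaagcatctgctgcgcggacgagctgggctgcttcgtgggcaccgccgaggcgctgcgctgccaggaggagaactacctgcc
Of all 50-base windows of the Avp transcript, 14.8% occur in the Oxt transcript, and 16% the other way round. Of 100-base windows, 5.86% of Avp's occur in Oxt. Neither the read length nor the treatment of reads that match both genes is stated in the labels, so the counts of both genes are uncertain to that extent. No other annotated gene lies between them on chromosome 2, and no annotated gene overlaps either.

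Avp, the vasopressin precursor gene, stood at 357, 373 and 361 CPM in aged replicates 1 to 3 and at 220.5, 253 and 248 CPM in young replicates 1 to 3. All 3 aged libraries lay above all 3 young ones, and the gap between the groups was wider than the range within either. These levels rest on 6260 to 7176 reads in aged and 3762 to 4467 reads in young libraries. The group means were 364 ± 8.05 and 240.6 ± 17.6 CPM (SD, n = 3 each), a 1.51-fold difference (log2 fold change 0.60 ± 0.06 SE, 95% interval 0.45 to 0.74; edgeR adjusted p = 0.00248). Avp passed in all 19 alternative analyses, with log2 fold changes of 0.45 to 0.64 and adjusted p up to 0.0147. The value of 0.45 came with the trend of counts on gene length removed. With young replicate 1, 2 or 3 left out the log2 fold change was 0.54, 0.64 or 0.63. Per gene length, Avp was the 25th most abundant gene in the aged and the 63rd in the young group on the deposited FPKM scale.

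The 250 bases before the start of Avp are shown because Avp is the member that changed. They are from RefSeq (GRCm38.p6, chr2:130582589-130582838, minus strand), a build other than the GRCm39 of the deposited files, and capitals mark CACGTG, the E-box letters that the clock factors CLOCK and BMAL1 can bind.
Avp promoter: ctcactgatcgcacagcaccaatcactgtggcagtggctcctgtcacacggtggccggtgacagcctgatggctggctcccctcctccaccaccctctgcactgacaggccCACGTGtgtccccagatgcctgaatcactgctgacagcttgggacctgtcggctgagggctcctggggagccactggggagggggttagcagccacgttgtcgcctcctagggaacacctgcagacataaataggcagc
CACGTG occurs 1 time in this window, from base -139 to -134 relative to the start, and 6.02% of 32851 RefSeq promoters of the same length hold it. The TATA-like letters CATAAA also occur 1 time (10.8% of promoters, both strands searched, no overlap with CACGTG). A match of letters describes the window and says nothing of binding here. Of 11 genes that mark the suprachiasmatic nucleus, where Avp follows the clock, 0 passed in edgeR, DESeq2 or limma-voom, and 1 passed in limma-voom with sample weights. Over all genes tested 6.86% passed in edgeR, and 11 genes are too few to tell 0 from that share. Rorb alone had an unadjusted p under 0.05 in edgeR, with all aged libraries below all young ones (log2 fold change -0.22, edgeR adjusted p = 0.0874). The summed level of the 11 was 154 to 163 CPM in aged and 154 to 173 CPM in young libraries. The labels name a regular light cycle but no hour of tissue collection.

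Oxt, the oxytocin precursor gene, did not rise with Avp. It stood at 243, 240.1 and 233 CPM in aged replicates 1 to 3 and at 245, 288 and 349.8 CPM in young replicates 1 to 3. The aged libraries lay close together and below all young ones, but young replicate 1 came within a few CPM of the aged range. Group means were 239 ± 4.89 and 294 ± 52.6 CPM (SD, n = 3 each), and the difference did not pass (log2 fold change -0.30 ± 0.11 SE, 95% interval -0.54 to -0.058; edgeR adjusted p = 0.117, unadjusted p = 0.0202). Without young replicate 3 the log2 fold change was -0.15 (adjusted p = 0.302), and without young replicate 1 it was -0.41 (adjusted p = 0.0527). Over 19 alternatives the adjusted p ran from 0.0439 to 0.302, and the direction was the same in all.

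Young replicate 3, the library with the most Oxt, also held reads of anterior pituitary hormone genes. Prl (prolactin) was at 142 CPM there, against 7.18 CPM in young replicate 2 and 0.231 to 0.448 CPM in the other 4 libraries; Gh (growth hormone) was at 78.3 CPM against 3.85 and 0.173 to 0.410 CPM. The whole list of 11 pituitary genes summed to 15.2 to 36.0 CPM in aged and 20.5 to 243 CPM in young libraries. Its members did not peak together: 3 of 11 were highest in young replicate 3 and 2 in young replicate 2. Another 4 were highest in aged replicate 2 and 2 in aged replicate 3. Cga, for example, was at 5.08 CPM in aged replicate 3 and 1.84 CPM in young replicate 3. Pou1f1 was at 0 in 5 libraries, Tshb, Cga and Pitx1 in 2 each and Fshb in 1. The part of these pituitary reads in the Oxt level was not tested. Avp in the same library, at 248 CPM, lay between the other young libraries.

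The 250 bases before the Oxt start (RefSeq, GRCm38.p6, chr2:130575919-130576168, plus strand) are set beside those of Avp because the genes are neighbours that did not move together. Capitals mark TGACC or its reverse complement GGTCA, the half-site letters of nuclear receptors, which act on this stretch in the known regulation of the oxytocin gene.
Oxt promoter: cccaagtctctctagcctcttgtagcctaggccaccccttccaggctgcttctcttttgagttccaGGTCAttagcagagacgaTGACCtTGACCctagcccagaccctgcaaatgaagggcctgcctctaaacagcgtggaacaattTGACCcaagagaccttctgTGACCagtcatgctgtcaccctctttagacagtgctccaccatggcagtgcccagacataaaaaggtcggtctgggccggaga
TGACC occurs 5 times on either strand in the Oxt window and 0 times in the Avp window, and 35.2% of promoters of this length hold it at least once. CACGTG occurs 0 times in the Oxt window, and CATAAA 1 time, without overlap. No match says only that these letters are not in the window.

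The ratio of Avp to Oxt reads within a library does not depend on how libraries are scaled. It was 1.47, 1.55 and 1.55 in aged replicates 1 to 3 and 0.899, 0.880 and 0.710 in young replicates 1 to 3. Avp reads outnumbered Oxt reads in every aged library, and Oxt reads outnumbered Avp reads in every young one. The ratio averaged 1.52 ± 0.0458 in aged and 0.830 ± 0.104 in young libraries (SD, n = 3 each), a 1.85-fold difference of geometric means (log2 difference 0.88; two-sided exact permutation p = 0.1, the smallest that 20 assignments of 3 against 3 allow). Leaving out any 1 library gave log2 differences of 0.78 to 0.95, the lowest without young replicate 3.

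**Figure D2:**
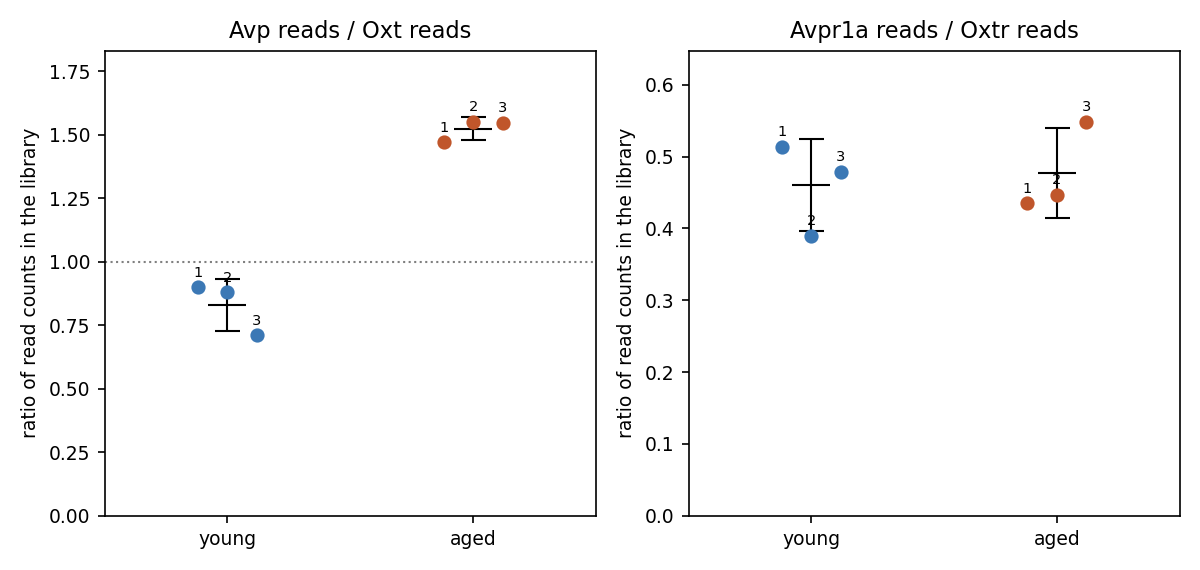
Ratio of read counts within each library for the peptide genes (left) and the receptor genes (right), on linear axes from 0; points are libraries with their replicate number, lines the mean and bars the SD (n = 3), and the dotted line marks equal reads. The Avp to Oxt ratio is 1.47 to 1.55 in aged and 0.710 to 0.899 in young libraries; the receptor ratios overlap.

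Which peptide gene is the more abundant per gene length depends on the length used. The deposited FPKM (reads scaled to gene length and library size) averaged 601 ± 18.8 for Avp and 109.7 ± 2.42 for Oxt in aged, and 389.7 ± 30.1 and 133 ± 25.3 in young libraries (SD, n = 3 each). On this scale Avp stood 5.48 times as high as Oxt in the aged and 2.94 times as high in the young group. These FPKM values imply a length of 611 bases for Avp and 2198 bases for Oxt, whereas the GENCODE transcripts have 577 and 537 bases. With the GENCODE lengths, Avp stood at 1.42 times the level of Oxt in aged and at 0.760 times in young libraries. The difference between the ages is the same on both scales, since the length cancels.

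Among the receptors, neither gene passed. Avpr1a, the V1a vasopressin receptor, stood at 4.48, 5.24 and 4.56 CPM in aged and at 5.57, 4.37 and 5.06 CPM in young replicates 1 to 3, from 76 to 101 reads each. The groups overlapped throughout. Means were 4.76 ± 0.419 and 4.999 ± 0.603 CPM (SD, n = 3 each), with a log2 fold change of -0.068 ± 0.15 SE and an edgeR adjusted p of 0.820. The 95% interval of the log2 fold change, -0.41 to 0.27, leaves room for changes of either sign, and the sign turned to 0.024 without young replicate 1. In GENCODE M21 an antisense gene, Gm48877, overlaps Avpr1a, and the labels do not state whether counting used strand.

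Oxtr, the oxytocin receptor, stood at 10.3, 11.7 and 8.31 CPM in aged replicates 1 to 3 and at 10.8, 11.2 and 10.6 CPM in young replicates 1 to 3. The young libraries all lay within the aged range, which ran from the lowest to the highest value of the 6. Means were 10.1 ± 1.72 and 10.9 ± 0.318 CPM (SD, n = 3 each), with a log2 fold change of -0.10 ± 0.13 SE (95% interval -0.40 to 0.19; edgeR adjusted p = 0.674). Without aged replicate 3 it was 0.029. The ratio of Avpr1a to Oxtr reads was 0.477 ± 0.0625 in aged and 0.461 ± 0.0639 in young libraries (two-sided exact permutation p = 0.9, n = 3 each). The receptor coding sequences are 68.9% identical over 1145 aligned bases, with a longest identical run of 23 bases, far shorter than the run shared by the peptide genes.

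Avpr1b, the vasopressin receptor of pituitary corticotrophs, had 0 reads in 5 libraries and 1 read in young replicate 3. A count of 0 allows up to 3 reads, or 0.156 to 0.176 CPM at these depths. Avpr2, the kidney-type receptor, is not analysed here.

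Lnpep encodes the membrane aminopeptidase known as oxytocinase or IRAP, which removes the first residue of oxytocin and vasopressin and is also found on storage vesicles of the glucose transporter GLUT4. It belongs to the M1 family, whose zinc-binding motif occurs 1 time in its 1025 codons, at codon 464. The codons of that motif (capitals, from the GENCODE transcript Lnpep-201) show the catalytic centre that defines the family.
Lnpep zinc motif: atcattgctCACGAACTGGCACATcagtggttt
Lnpep stood at 12.9, 25.7 and 22.6 CPM in aged and at 23.0, 62.8 and 25.8 CPM in young replicates 1 to 3. Young replicate 2 was more than 2 times as high as any other library, aged replicate 1 was the lowest, and the groups overlapped. Means were 20.4 ± 6.64 and 37.2 ± 22.2 CPM (SD, n = 3 each), and the difference did not pass (log2 fold change -0.86 ± 0.37 SE, 95% interval -1.69 to -0.034; edgeR adjusted p = 0.174). Without young replicate 2 the log2 fold change was -0.25 (adjusted p = 0.555), and without aged replicate 1 it was -0.61 (adjusted p = 0.411). A second annotated gene, Gm49784, overlaps Lnpep on the same strand.

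Genes of cortical and hippocampal neurons were also highest in young replicate 2. Of 8 telencephalic marker genes, 7 had their highest level there; the list summed to 322 CPM in that library, against 107 to 169.9 CPM in the other young and 112 to 117 CPM in the aged libraries, and none of the 8 was at 0 in any library. In edgeR, 2 of the 7 tested passed as lower in aged, against 3.64% of all genes tested. Of 8 markers of thalamus and habenula, 6 were also highest in young replicate 2, with a sum of 726 CPM there. Their sum was 625 CPM in young replicate 1, 557 CPM in young replicate 3 and 477 to 591 CPM in aged libraries. Among these Tcf7l2, a transcription factor of thalamic neurons, passed as lower in aged (log2 fold change -1.18; edgeR adjusted p = 0.0464), a call lost in 13 of 19 alternatives. At the other end, aged replicate 1, the library with the least Lnpep, had the highest level of 6 of 7 striatal markers, with a sum of 349 CPM against 236 to 276 CPM in the other 5 libraries; 0 of the 7 passed in edgeR or DESeq2 (1 with an unadjusted p under 0.05 in edgeR), and 1 passed in limma-voom with sample weights. Slc17a7, a vesicular glutamate transporter, stood at 173 CPM in young replicate 2, 58.5 CPM in young replicate 3 and 9.58 to 22.1 CPM elsewhere. The part of these tissues in the Lnpep level was not tested. The genes whose profile over the 6 libraries was most like that of Lnpep, named after the values were seen, were Gucy1a2, Prss12, Arfgef3, Cck and Epha6, with root mean square differences of 0.11 to 0.28 in log2 CPM after centring each gene on its mean. Being chosen on these libraries, they add nothing to the values of Lnpep itself.

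**Figure D3:**
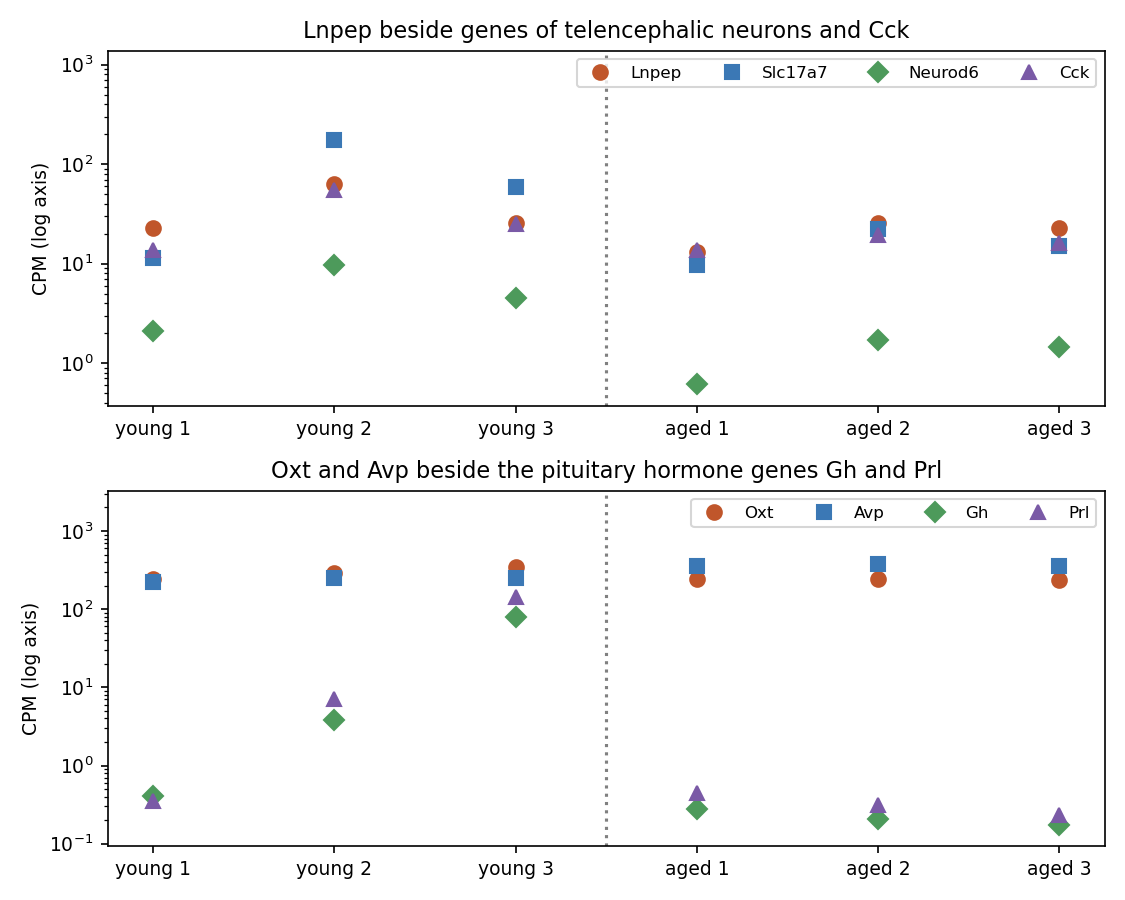
CPM on a log axis in each library, for Lnpep beside Slc17a7, Neurod6 and Cck (top) and for Oxt and Avp beside the pituitary genes Gh and Prl (bottom). Lnpep and the telencephalic genes are highest in young replicate 2; Gh and Prl are highest in young replicate 3, the library with the highest Oxt.

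In order of level per gene length (deposited FPKM), Avp stood first and Oxt second in every library. Lnpep followed with 1.92 to 9.12 FPKM, then Oxtr with 1.52 to 2.17 and Avpr1a with 1.60 to 2.05 FPKM. The ranges of the receptors overlap, and aged replicate 1 put Lnpep within them, so these neighbours do not differ beyond their spread. The length behind the Lnpep FPKM is 6757 bases against 12052 in GENCODE. With GENCODE lengths, mean Lnpep in the aged group was 1.71 FPKM, below Oxtr at 2.17. In the young group mean Lnpep was 3.05 FPKM with these lengths, above Oxtr at 2.29.

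The profile of Avp over the 6 libraries was closest to those of Rom1, C1qb, Spint1, Ccer2 and Tent5c among 13375 genes, with root mean square differences of 0.05 to 0.07. Rom1, C1qb, Ccer2 and Tent5c passed as higher, with log2 fold changes of 0.61 to 0.68, and Spint1 did not (0.49; edgeR adjusted p = 0.0692). C1qb kept its call in every alternative, while the calls of Rom1, Ccer2 and Tent5c were lost in 2, 4 and 9 of 19. Oxt itself ranked 11814th in likeness to Avp. Closest to Oxt were Nek11, Fancf, Cfap61, Hmgcs1 and Ccdc162 (0.07 to 0.08), none of which passed. Both sets were chosen for likeness over these same libraries, so their fold changes and calls add nothing to the values of Avp or Oxt. Among the genes listed for magnocellular neurons, Pdyn ranked nearest to Avp (rank 322) and Sim1 nearest to Oxt (rank 1784).

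Genes that act with the peptides were taken from 7 lists covering processing, storage, co-expressed peptides, regulators, release, receptor signalling and breakdown. Of 69 tested genes on these lists, 7 were higher and 7 lower in aged hypothalamus, 20.3% in all against 6.86% of all genes tested, with a median log2 fold change of -0.024 against -0.0035 over all genes. The lists were put together with earlier results of these data known. The same 6.86% is the background for each single list below, and lists this short do not allow a share to be told from it. The count changed when a library was left out: without aged replicates 1, 2 and 3 it was 1, 8 and 1 higher and 2, 9 and 1 lower. Without young replicates 1, 2 and 3 it was 2, 3 and 3 higher and 2, 3 and 4 lower. Over all genes, calls fell or rose with the same omissions: 95 to 901 higher and 55 to 732 lower, against 474 and 535.

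Of 9 peptide genes that magnocellular or neighbouring neurons also make, 3 rose, 1 fell and 5 did not pass (median log2 fold change 0.32). Pdyn, the prodynorphin gene, whose product is stored with vasopressin, stood at 75.6, 64.4 and 67.4 CPM in aged and at 54.5, 46.8 and 51.0 CPM in young replicates 1 to 3. Its groups did not overlap (log2 fold change 0.45 ± 0.08 SE; edgeR adjusted p = 0.0186). The call was lost without aged replicates 1 and 3 and young replicate 3. Penk, the enkephalin precursor, rose by 0.54 ± 0.13 and Cartpt by 0.32 ± 0.07 on the log2 scale. Apln, the precursor of apelin, a peptide of vasopressin neurons that opposes vasopressin action, fell by 0.50 ± 0.11. Pdyn and Penk were both highest in aged replicate 1, at 75.6 and 158 CPM, the library with the most striatal marker reads, and striatal neurons also express both genes; the part of this in their calls was not tested. The calls of Penk, Cartpt and Apln were lost in 5, 6 and 5 of 19 alternatives, all but 2 of them with 1 library left out. Gal (0.58; edgeR adjusted p = 0.0516), Crh (0.69; 0.0865) and Trh (0.26; 0.138) had aged libraries above all young ones without passing. Cck was at 54.9 CPM in young replicate 2, like Lnpep above its other libraries.

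Of 10 regulators of magnocellular development or of the peptide genes, 2 rose, 2 fell and 6 did not pass. Caprin2, an RNA-binding protein that binds the vasopressin messenger, stood at 29.0, 27.1 and 29.1 CPM in aged and at 23.0, 20.1 and 22.6 CPM in young replicates 1 to 3 (log2 fold change 0.37 ± 0.08 SE; edgeR adjusted p = 0.0296). Rasd1, a small G protein, rose by 0.86 ± 0.20. Each of these 2 calls was lost in 5 of 19 alternatives, among them without aged replicates 1 and 3 and without young replicates 1 and 3. Pou3f2, a POU factor needed for magnocellular neurons to form, stood at 23.8, 23.2 and 26.5 CPM in aged and at 32.9, 36.2 and 33.5 CPM in young replicates 1 to 3, with no overlap (log2 fold change -0.48 ± 0.08 SE; edgeR adjusted p = 0.0135; lost without aged replicate 1). Nr2f1, the nuclear receptor COUP-TFI, fell by 0.47 ± 0.09, a call lost without aged replicate 3 and young replicate 1. Sim1 and Otp, which specify the same neurons, both had values of -0.28 and did not pass (edgeR adjusted p = 0.228 and 0.107), and Creb3l1, a transcription factor of the Avp gene, had a value of 0.013 (adjusted p = 0.968).

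**Figure D4:**
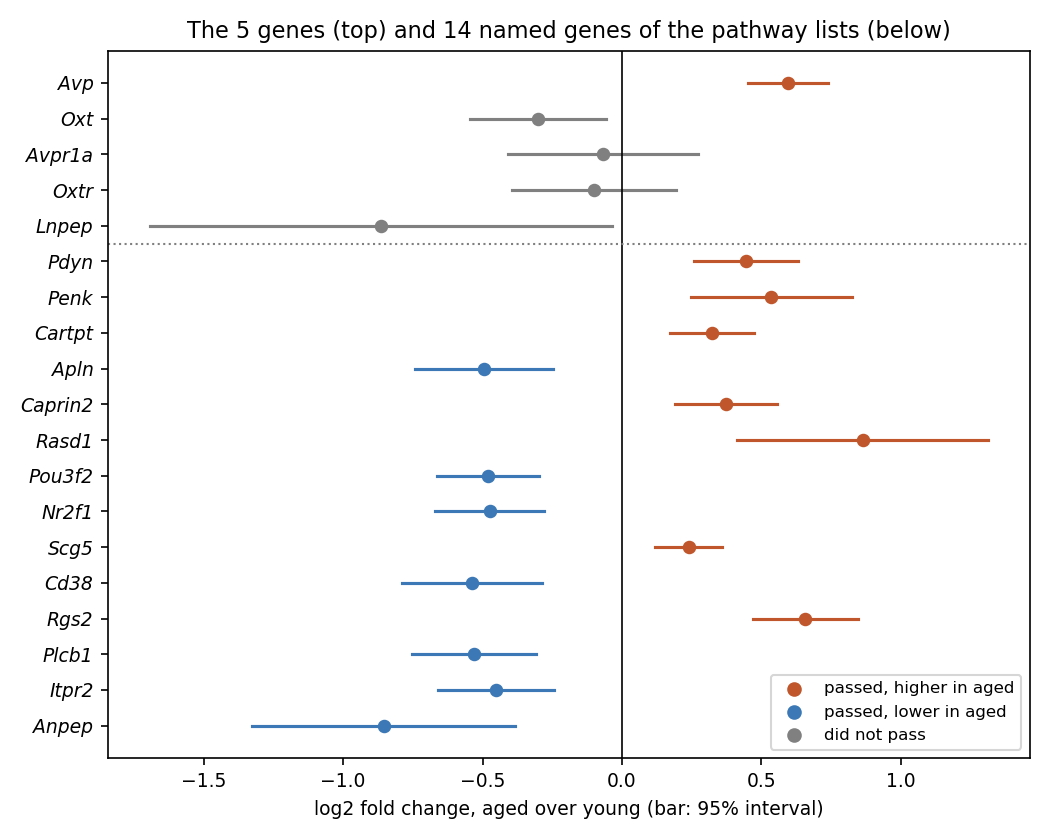
Log2 fold change of aged over young with its 95% interval for the 5 genes (above the dotted line) and for the 14 genes of the pathway lists that passed; orange, higher; blue, lower; grey, did not pass. Avp lies at 0.60 with a narrow interval, Oxt and Lnpep lie below 0 without passing, and the receptors lie near 0.

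Of 7 processing enzymes and their partners, Scg5, which encodes the chaperone 7B2 of the convertase PC2, rose by 0.24 ± 0.05 on the log2 scale (edgeR adjusted p = 0.0322; lost in 6 of 19 alternatives, 5 of them with aged replicate 1 or 3 or any young library left out), and 6 did not pass. Pcsk2, the PC2 convertase, had a value of -0.24 (adjusted p = 0.0819), Pcsk1 one of 0.19 (0.162) and Pam, which amidates both hormones, one of 0.0052 (0.978). Of 10 genes of dense core vesicles, in which the peptides are stored, 0 passed in edgeR, DESeq2 or limma-voom (3 with an unadjusted p under 0.05 in edgeR); Scg3 came nearest (-0.20; edgeR adjusted p = 0.0692) and passed in limma-voom with sample weights, with the length trend removed and without aged replicate 2. Neurons as a whole gave no call in edgeR over 12 markers (2 with an unadjusted p under 0.05; 1 passed in DESeq2), and their summed level was 6244 to 6684 CPM in aged and 6581 to 7531 CPM in young libraries.

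Release control gave 1 call among 9 genes, against 6.86% of all genes tested. Cd38, an enzyme that forms the calcium-releasing messenger cyclic ADP-ribose and is needed for oxytocin release in mice, stood at 12.1, 10.1 and 12.6 CPM in aged and at 15.4, 16.9 and 18.2 CPM in young replicates 1 to 3. The groups did not overlap (log2 fold change -0.54 ± 0.11 SE; edgeR adjusted p = 0.0255). The call was lost when aged replicate 1 or 3 or any young library was left out, with adjusted p up to 0.0881. Magel2, a Prader-Willi region gene linked to oxytocin deficits in mice, had a log2 fold change of 0.12 (edgeR adjusted p = 0.520), and Scn7a, a sodium sensor channel, one of 0.47 (0.0964).

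Downstream of the receptors, 1 of 14 genes of Gq signalling rose, 2 fell and 11 did not pass, where 6.86% of all genes tested passed. Rgs2, which shortens signalling by Gq, stood at 93.9, 80.7 and 99.3 CPM in aged and at 55.1, 58.1 and 60.4 CPM in young replicates 1 to 3. It did not overlap between the groups (log2 fold change 0.66 ± 0.08 SE; edgeR adjusted p = 0.00468). Like Avp, it passed in all 19 alternatives. Plcb1, a phospholipase C activated by Gq, fell by 0.53 ± 0.10, and Itpr2, a calcium release channel, by 0.45 ± 0.09 on the log2 scale. Their calls were lost in 3 and 8 of 19 alternatives, for both without aged replicates 1 and 3 and, for Itpr2, without each young library. Gnaq, the G protein subunit itself, had a value of -0.10 (edgeR adjusted p = 0.271) and Gna11 one of 0.094 (0.361).

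Of 10 tested M1 aminopeptidases and other peptide-cleaving enzymes beside Lnpep, 1 fell and 9 did not pass, where 6.86% of all genes tested passed. The call was Anpep, aminopeptidase N, at 1.90 to 2.41 CPM in aged and 3.06 to 4.75 CPM in young libraries (log2 fold change -0.86 ± 0.21 SE; edgeR adjusted p = 0.0425). It was lost in 8 of 19 alternatives, among them when any of the 6 libraries was left out. Erap1, of the same gene family as Lnpep, had a log2 fold change of 0.016 (edgeR adjusted p = 0.939). Prep, an oligopeptidase that cleaves both hormones, had a value of -0.25 (0.120).

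**Figure D5:**
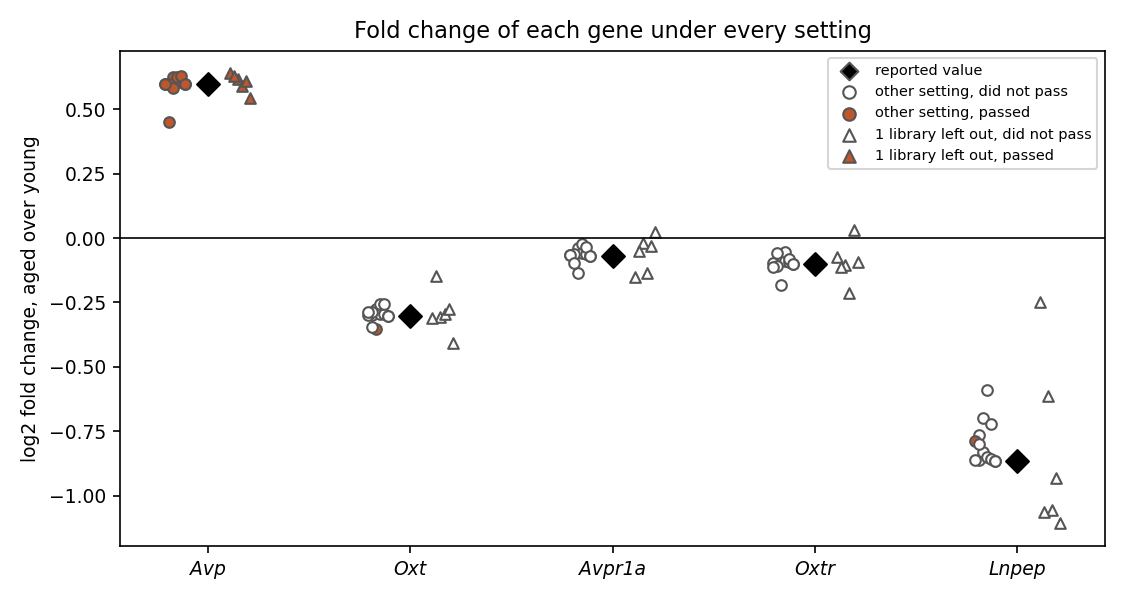
Log2 fold change of aged over young for each of the 5 genes under every setting; black diamonds are the reported values, circles other processing settings, triangles fits with 1 library left out, and filled orange symbols passed at an adjusted p under 0.05. Avp passes under every setting; Oxt and Lnpep pass under 1 setting each, and Lnpep moves to -0.25 without young replicate 2.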

How the data were processed

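Read counts per gene, whole numbers with 1 column per mouse, were deposited by the authors, and the deposited FPKM table the same reads scaled by the authors to gene length and library total; lengths were recovered from the 2 tables. The submitters' processing notes name GRCm39 as the build and list Trimmomatic, HISAT2, HTSeq, Cufflinks and DESeq with no versions; the library kit was TruSeq Stranded mRNA, per the labels' protocols. Counts were tested with edgeR 4.0.16 (quasi-likelihood, TMM; filterByExpr, minimum count 10, minimum total 15), which kept 14702 of 18228 genes, and checked on simulated data. Alternatives used DESeq2 1.42.0, limma 3.58.1 (voom, or log2 of FPKM plus 1 or 0.1), other scalings and filters, robust estimation, a replicate block, removal of the length trend and leaving out each library. p-values measure the spread between 3 mice a group; replicates differed by more than counting error (4.04 to 12.1 as chi-square over its degrees of freedom). Transcripts were read from GENCODE M21 and promoters from RefSeq (GRCm38.p6, found for 5 of 5 genes) with Biopython 1.88. The members and lists were chosen with earlier results of these data known. The genes named are all members, the passing genes of each pathway list (or that with the smallest adjusted p), abundant or passing markers, and the 5 genes with profiles nearest to Avp and to Oxt; others are given as values chosen after they were seen. The values of 1 pituitary marker are not reported here; it stays in the sum of its list.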

Additional observations from a re-analysis of the deposited data

How the results depend on the processing

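Avp kept its direction and call in 19 of 19 alternatives. Oxt passed in 1 (limma-voom with sample weights, log2 fold change -0.35, adjusted p = 0.0439) and Lnpep in 1 (the replicate block, -0.79, adjusted p = 0.0378); the cause was not tested. With 1 library left out, Oxt ran from -0.41 to -0.15, Lnpep from -1.11 to -0.25, Avpr1a from -0.15 to 0.024, Oxtr from -0.21 to 0.029 and the log2 difference in the ratio of Avpr1a to Oxtr from -0.065 to 0.13. Genes called higher over the whole table then numbered 95 to 901 and lower 55 to 732, and those of the pathway lists 1 to 8 higher and 1 to 9 lower. Limma-voom with sample weights called 1265 genes higher and 1303 lower, and 13 of the pathway lists lower. On log2(FPKM + 1) and log2(FPKM + 0.1), 293 and 303 were lower; with the length trend removed 332 were lower and 3 pathway genes higher. Same-numbered mice did not deviate together (r = 0.0953, 0.0374 and -0.138 for numbers 1 to 3). This gives no sign that the numbers pair the mice, but cannot exclude it. With the replicate block 523 genes were higher and 667 lower.

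Of 27 called genes that are no members, 27 kept their direction in every alternative and 6 their call: the 4 Y-linked genes, C1qb and Rgs2. Of those not called, 3 changed sign. Six3 (-0.010) had 0.018 with total counts, 0.046 with sample weights, 0.015 on log2(FPKM + 1), 0.016 on log2(FPKM + 0.1) and -0.058 to 0.091 with 1 library left out. Pde10a (-0.033) had 0.071 with sample weights, 0.12 with the length trend removed and -0.14 to 0.098 with 1 library left out, and Ppp1r1b (0.37) -0.061 to 0.62. With total counts, 627 genes were higher and 446 lower, against 474 and 535 as reported.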
